A study of Mus musculus with 10 samples.

Results

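The insulin-like growth factor (IGF) genes are described here by their mRNA levels in mammary epithelial cells (MECs) and mammary macrophages. The 10 members are a list of names, the ligands *Igf1* and *Igf2*, the receptors *Igf1r* and *Igf2r*, and the binding proteins *Igfbp2* to *Igfbp7*. The list rests on names and was chosen with earlier results of these data known. The 10 genes are among 55487 in the count tables. All 10 genes were found in the 10 RNA sequencing libraries. Of these, 9 passed the filter on low counts in each comparison, and *Igf2* passed in none.

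IGFs are secreted growth factors that act through *Igf1r*, a receptor tyrosine kinase. Nearly all IGF outside cells is held by binding proteins, which can shield the ligand from its receptor, carry it or release it when proteases cut them. In the mammary gland, *Igf1* is known as a stromal signal downstream of growth hormone that drives ductal growth, and *Igfbp5* is known for its role in involution after lactation.

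The study asked how deletion of *Cebpb*, which encodes the transcription factor C/EBPβ, in macrophages affects the gland. WT mice were *Csf1r-Cre* neg;*Cebpb* fl/fl and *Cebpb* ΔM mice were *Csf1r-Cre* pos;*Cebpb* fl/fl, so both genotypes carried the floxed allele. The *Csf1r* promoter drives Cre in CSF1R+ myeloid cells and not only in mammary macrophages, and GEO's labels call this genotype a knockdown. All mice were 10-wk-old females in diestrus on the BALB/c background. MECs came from 2 WT and 2 *Cebpb* ΔM samples after negative selection against lineage markers, and macrophages from 2 WT and 4 *Cebpb* ΔM samples after positive selection for F4/80. MEC samples are numbered 1 and 3, WT macrophage samples 4 and 5, and *Cebpb* ΔM macrophage samples 4 to 7. Nothing used here states whether a sample was 1 mouse or a pool, so *P*-values measure the spread between these samples.

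The MEC libraries held 25310926 to 27008166 counts and the macrophage libraries 16935000 to 20174722. Levels below are CPM, each gene's share of the library's counts on a common scale, adjusted by the trimmed mean of M-values (TMM) over the 10 libraries, with the SD over libraries. *Adgre1*, which encodes F4/80, lay between 0 and 0.526 CPM in MECs and between 176 and 367 CPM in macrophages. The macrophage libraries also held marker transcripts of other cell types. The paper proposes that some epithelial transcripts there may come from phagocytosed epithelial cells. Whether such transcripts came from other cells or from engulfed ones was not tested. Summed luminal markers were between 5346 and 10608 CPM there, against 26841 to 35594 CPM in MECs. Summed fibroblast markers were at like levels in both cell types, between 5332 and 6502 CPM in MECs and between 3395 and 7796 CPM in macrophages. The targeted gene, *Cebpb*, had few counts. Macrophages labeled WT had 13 and 15 counts, and those labeled *Cebpb* ΔM had 16, 13, 5 and 4 counts in samples 4 to 7, so the *Cebpb* count did not separate the genotypes. In MECs, which are not targeted, it had 25 and 28 counts in WT and 69 and 42 in *Cebpb* ΔM, with a log2 fold change of 1.06 (edgeR quasi-likelihood test, adjusted *P* = 0.890). *Tmem189*, on the opposite strand, overlaps *Cebpb* and had 165 to 573 counts in the 10 libraries. Reads of *Cebpb* and *Tmem189* cannot be told apart if the library kit did not mark strand. Genotypes below are those of the labels. Because all samples are bulk, more mRNA per cell and more cells of a type cannot be told apart.

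*Igf1* was the ligand that passed the low-count filter, and it was a macrophage-fraction transcript. *Igf1* lies on the plus strand of chromosome 10 (GRCm38, 87858265 to 87937042). It stood at 14.1 and 19.8 CPM in WT MECs and at 8.13 and 18.7 CPM in *Cebpb* ΔM MECs. In macrophages it stood at 113 and 141 CPM in WT and at 126, 141, 155 and 172 CPM in *Cebpb* ΔM. Every macrophage library was thus above every MEC library, while the genotypes overlapped within each cell type. *Igf1* was 7.49-fold higher in WT macrophages than in WT MECs (log2 fold change 2.91, SE 0.36, edgeR quasi-likelihood test over all genes, adjusted *P* = 1.909e-04). Between *Cebpb* ΔM macrophages and MECs it was 11.1-fold higher (log2 fold change 3.47, SE 0.35, adjusted *P* = 2.934e-05). MECs and macrophages were isolated by different methods and deposited as separate count tables, so cell type and isolation cannot be told apart in any such comparison.

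*Igf2*, the ligand best known from fetal growth, had few counts in every library. It lies on chromosome 7 (142650766 to 142666816, minus strand). It had 3 and 1 counts in WT MECs, 1 and 6 in *Cebpb* ΔM MECs, 1 and 4 in WT macrophages and 5, 13, 14 and 6 in *Cebpb* ΔM macrophages. A count of 3 equals 0.117 to 0.180 CPM in these libraries, and the highest level was 0.760 CPM. *Igf2* was below the low-count filter in every comparison and was not tested. All 4 *Cebpb* ΔM macrophage libraries were above both WT ones in CPM (0.255 to 0.760 against 0.0502 and 0.190). The closest of these had 5 counts (*Cebpb* ΔM sample 4) and 4 counts (WT sample 5), so this order rests on few counts. *Gm49394* overlaps *Igf2* on the same strand and had 0 counts in every library. Reads that lie in both may be missing from the *Igf2* count, which was not tested. The opposite-strand gene *Igf2os* also overlaps *Igf2* and had 0 to 25 counts. Reads of *Igf2* and *Igf2os* cannot be told apart if the library kit did not mark strand. *H19*, the imprinted noncoding RNA beside *Igf2*, stood at 23.3 CPM in WT macrophage sample 4 and between 1.44 and 7.11 CPM in the other macrophage libraries, against 0.163 to 0.650 CPM in MECs.

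**Figure D1:**
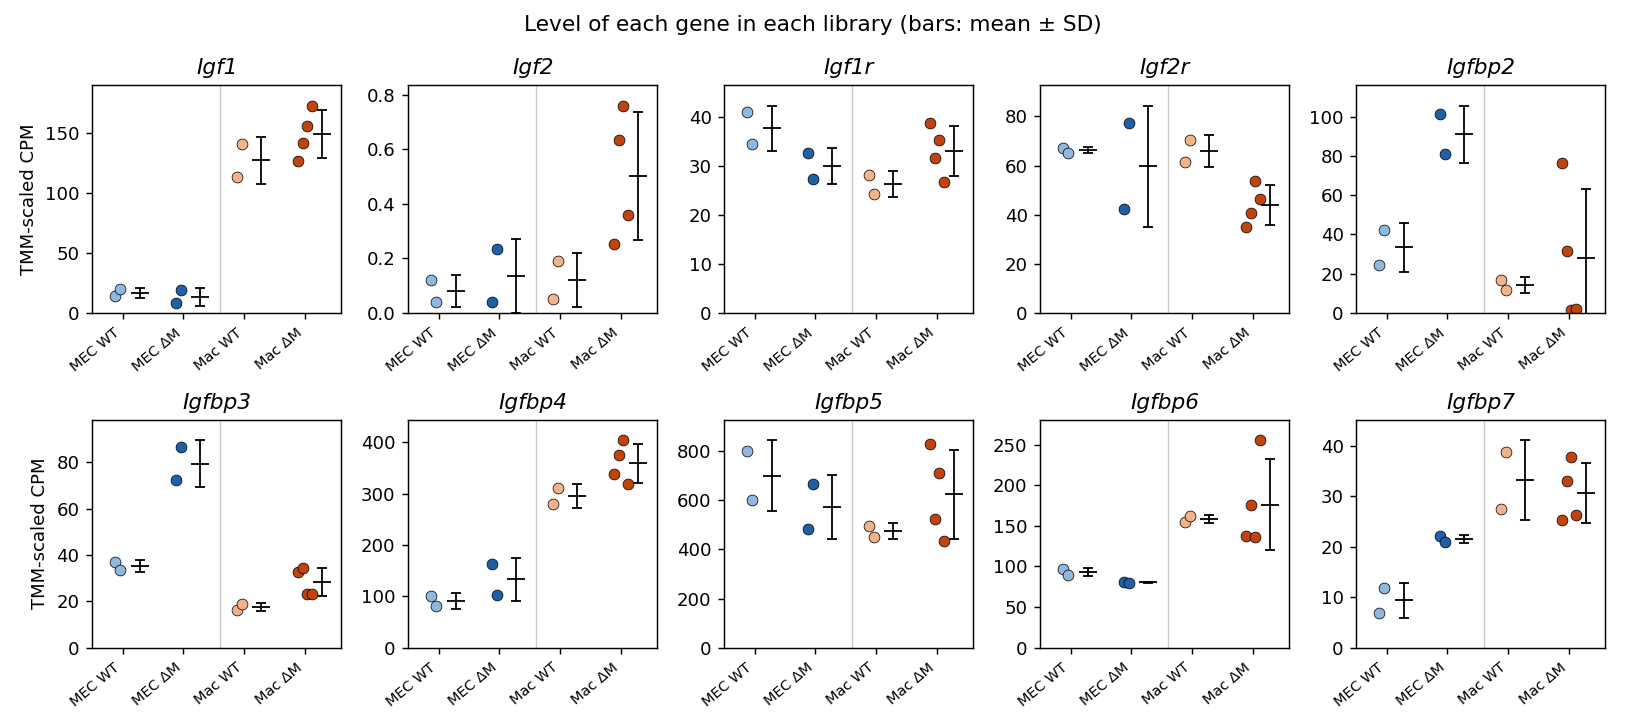
Level of each of the 10 genes in each library in TMM-scaled CPM (linear axes from 0, a separate scale per gene), by cell type and genotype, with a point per library and the mean ± SD beside it (bars end at 0 where the SD exceeds the mean). *Igf1* separates macrophages (113 to 172 CPM) from MECs (8.13 to 19.8 CPM), and *Igfbp2* in *Cebpb* ΔM macrophages spans 1.74 to 76.2 CPM.

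The receptors differed less between the cell types than *Igf1* did, and with all libraries in the fit neither passed the quasi-likelihood test in any comparison. *Igf1r*, on chromosome 7 (67952827 to 68233668, plus strand), stood at 40.9 and 34.4 CPM in WT MECs and 32.6 and 27.4 CPM in *Cebpb* ΔM MECs. It stood at 28.2 and 24.4 CPM in WT macrophages and 38.8, 31.6, 35.2 and 26.7 CPM in *Cebpb* ΔM macrophages. The 2 MEC genotypes did not overlap, but the log2 fold change of -0.31 (SE 0.23) did not pass the test (quasi-likelihood adjusted *P* = 0.9997). Both WT macrophage libraries were also below both WT MEC libraries, with a log2 fold change of -0.52 (SE 0.23, adjusted *P* = 0.126), and in *Cebpb* ΔM it was 0.14 (adjusted *P* = 0.627).

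*Igf2r*, which takes up *Igf2* for breakdown and carries lysosomal enzymes, lies on chromosome 17 (12682406 to 12769664, minus strand). It stood at 67.0 and 65.3 CPM in WT MECs and at 42.4 and 77.1 CPM in *Cebpb* ΔM MECs. In WT macrophages it stood at 61.3 and 70.4 CPM, and in *Cebpb* ΔM macrophages at 34.8, 40.6, 53.6 and 46.3 CPM. All 4 *Cebpb* ΔM macrophage libraries were below both WT libraries. The log2 fold change of -0.61 (SE 0.20, unadjusted *P* = 0.0162) did not pass after adjustment over all genes (quasi-likelihood adjusted *P* = 0.521). Between WT macrophages and WT MECs the log2 fold change of *Igf2r* was -0.01 (SE 0.29, adjusted *P* = 0.991). In *Cebpb* ΔM it was -0.45 (SE 0.24, adjusted *P* = 0.186), and it passed without *Cebpb* ΔM MEC sample 1 (-0.82, adjusted *P* = 0.0395). The ratio of *Igf1* to *Igf1r* per kb of exon was 0.423 to 1.16 in MECs and 5.51 to 10.9 in macrophages, with no overlap.

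The binding proteins made up most of the IGF transcripts, and in WT their order by mean level differed between the cell types. Per kb of exon, the mean level in WT MECs was highest for *Igfbp5* (116 FPKM) and *Igfbp6* (83.5 FPKM), followed by *Igfbp4* (20.6 FPKM), *Igfbp2* (18.1 FPKM), *Igfbp3* (11.2 FPKM) and *Igfbp7* (7.75 FPKM). Here FPKM is the scaled CPM divided by the exon length in kb. *Igfbp4* and *Igfbp2* overlapped between libraries in this order (18.2 to 23.0 and 13.3 to 22.9 FPKM). In WT macrophages *Igfbp6* was first (143 FPKM), then *Igfbp5* (78.9 FPKM), *Igfbp4* (66.9 FPKM), *Igfbp7* (27.4 FPKM), *Igfbp2* (7.72 FPKM) and *Igfbp3* (5.59 FPKM). *Igfbp5* and *Igfbp4* did not overlap there (75.2 to 82.6 and 63.3 to 70.5 FPKM), while *Igfbp2* (6.24 to 9.21 FPKM) lay just above *Igfbp3* (5.18 to 6.01 FPKM). *Igfbp6* was also first by mean in *Cebpb* ΔM macrophages (158 FPKM), but in sample 4 *Igfbp5* was above it (138 and 124 FPKM). In *Cebpb* ΔM MECs the mean of *Igfbp2* (49.3 FPKM) was above that of *Igfbp4* (30.2 FPKM), unlike in WT. The sum of the 6 binding proteins was 242 to 295 FPKM in MECs and 322 to 411 FPKM in macrophages. This was 121 to 348 times the *Igf1* level in MECs and 23.2 to 32.3 times in macrophages.

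**Figure D2:**
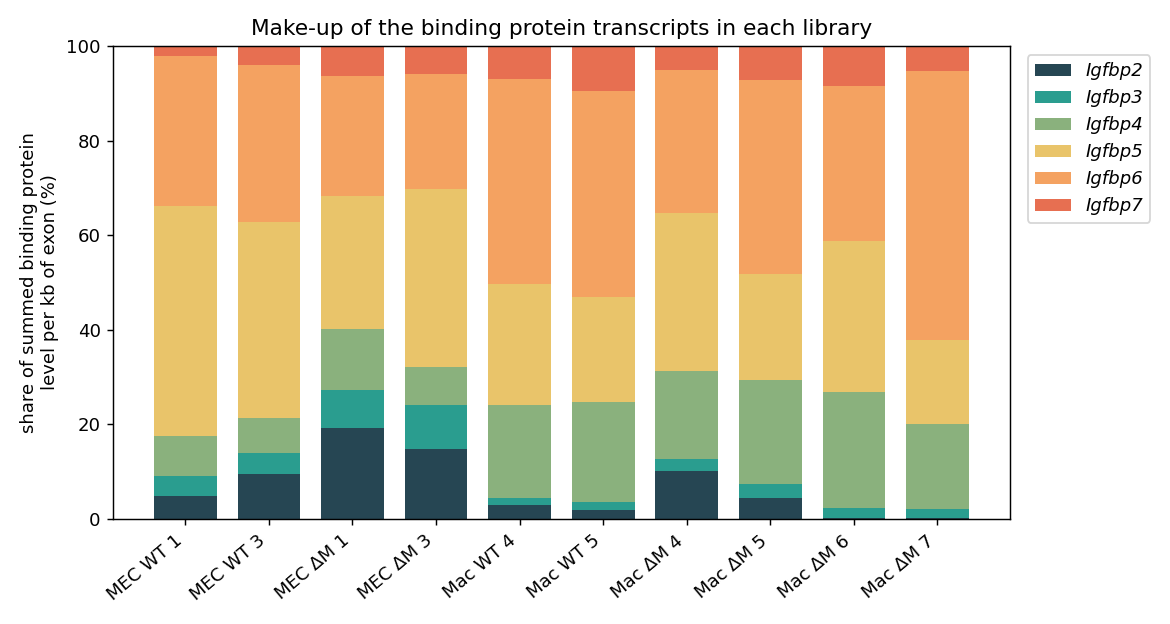
Share of each binding protein in the summed level of the 6 binding proteins per kb of exon (%), with 1 stacked bar per library, numbered by sample. *Igfbp2* took 4.87% and 9.47% in WT MECs and 14.8% and 19.2% in *Cebpb* ΔM MECs, and *Igfbp6* reached 56.8% in *Cebpb* ΔM macrophage sample 7.

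*Igfbp4* was the binding protein with the clearest macrophage-fraction level. It is known mostly as an inhibitor of IGF action that the protease *Pappa* inactivates, and it lies on chromosome 11 (99041244 to 99054392, plus strand). It stood at 102 and 80.4 CPM in WT MECs, 163 and 104 CPM in *Cebpb* ΔM MECs, 280 and 311 CPM in WT macrophages, and 338, 375, 404 and 320 CPM in *Cebpb* ΔM macrophages. The macrophage libraries were all above the MEC libraries. The log2 fold change between cell types was 1.70 in WT (SE 0.24, 3.25-fold, quasi-likelihood adjusted *P* = 5.371e-04) and 1.43 in *Cebpb* ΔM (SE 0.22, 2.69-fold, adjusted *P* = 5.423e-04).

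*Igfbp7*, a binding protein with low affinity for IGFs that is found around vessels, stood at 6.92 and 11.8 CPM in WT MECs and 22.2 and 20.9 CPM in *Cebpb* ΔM MECs. It lies on chromosome 5 (77349240 to 77408041, minus strand). In macrophages it stood at 27.5 and 38.8 CPM in WT and 25.4, 33.1, 37.8 and 26.3 CPM in *Cebpb* ΔM. It was 3.54-fold higher in WT macrophages than in WT MECs (log2 fold change 1.82, SE 0.32, quasi-likelihood adjusted *P* = 0.00181). Between the *Cebpb* ΔM groups the log2 fold change was 0.51 (SE 0.27, adjusted *P* = 0.175). The difference between these values is the interaction, -1.31 (SE 0.40, unadjusted *P* = 0.00786), which did not pass over all genes (adjusted *P* = 0.923). *Polr2b*, on the opposite strand, overlaps *Igfbp7* and had 1586 to 2312 counts in the 10 libraries, against 171 to 814 for *Igfbp7*. As for *Igf2*, reads of the 2 genes cannot be told apart if the kit did not mark strand.

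*Igfbp6*, which prefers *Igf2* as ligand, lies on chromosome 15 (102144362 to 102149511, plus strand). It stood at 96.4 and 89.3 CPM in WT MECs and at 80.6 and 80.2 CPM in *Cebpb* ΔM MECs. In macrophages it stood at 155 and 162 CPM in WT and 138, 176, 136 and 255 CPM in *Cebpb* ΔM. *Igfbp6* was 2.19-fold higher in *Cebpb* ΔM macrophages than MECs (log2 fold change 1.13, SE 0.25, quasi-likelihood adjusted *P* = 0.00545), a call lost without *Cebpb* ΔM MEC sample 1 (adjusted *P* = 0.0510). In WT the log2 fold change was 0.77 (SE 0.28, adjusted *P* = 0.0643). It passed without *Cebpb* ΔM macrophage sample 4 or 7 (adjusted *P* = 0.0419 and 0.0125).

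*Igfbp3*, the main carrier of IGFs in blood, was the member that passed as lower in macrophages. It lies on chromosome 11 (7206086 to 7213923, minus strand). It stood at 37.0 and 33.4 CPM in WT MECs and 72.2 and 86.5 CPM in *Cebpb* ΔM MECs, against 16.2 and 18.8 CPM in WT macrophages and 32.6, 34.3, 23.2 and 23.3 CPM in *Cebpb* ΔM macrophages. In WT it was 2.01-fold lower in macrophages (log2 fold change -1.01, SE 0.25, quasi-likelihood adjusted *P* = 0.0135). That call was lost without WT MEC sample 1 (adjusted *P* = 0.0754) or WT macrophage sample 4 (adjusted *P* = 0.0773). In *Cebpb* ΔM it was 2.80-fold lower (log2 fold change -1.48, SE 0.21, adjusted *P* = 2.734e-04).

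Of the 9 members tested, 3 thus passed as higher in WT macrophages than in WT MECs (*Igf1*, *Igfbp4* and *Igfbp7*) and 1 as lower (*Igfbp3*). Over all 18323 genes tested, 14.8% were called higher and 10.7% lower. In *Cebpb* ΔM, 3 passed as higher (*Igf1*, *Igfbp4* and *Igfbp6*) and 1 as lower (*Igfbp3*), against 18.9% higher and 14.7% lower over all genes. The median log2 fold change of the 9 members was -0.01 in WT and 0.14 in *Cebpb* ΔM, against 0.06 and 0.07 over all genes. *Igf1* and *Igfbp4* passed in both genotypes in every alternative analysis that was run.

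Markers of several cell types differed between the MEC and macrophage libraries. All 11 macrophage markers passed as higher in macrophages in both genotypes (median log2 fold changes 7.75 in WT and 8.96 in *Cebpb* ΔM). Of 4 adipocyte markers tested, 2 passed as higher in WT and 3 in *Cebpb* ΔM. Luminal and basal markers passed only as lower. All 8 endothelial markers and all 5 pericyte markers passed as higher in macrophages in both genotypes, and none of them was at 0 in any library. Their summed levels were 119 to 171 CPM (endothelium) and 27.6 to 53.8 CPM (pericyte) in MECs, against 1201 to 2606 CPM and 297 to 636 CPM in macrophages. Of 8 fibroblast markers, 3 passed as higher in macrophages in each genotype, none was at 0, and the summed levels overlapped as given above. The part of such cells, or of engulfed ones, in the *Igf1*, *Igfbp4*, *Igfbp6* and *Igfbp7* levels was not tested.

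**Figure D3:**
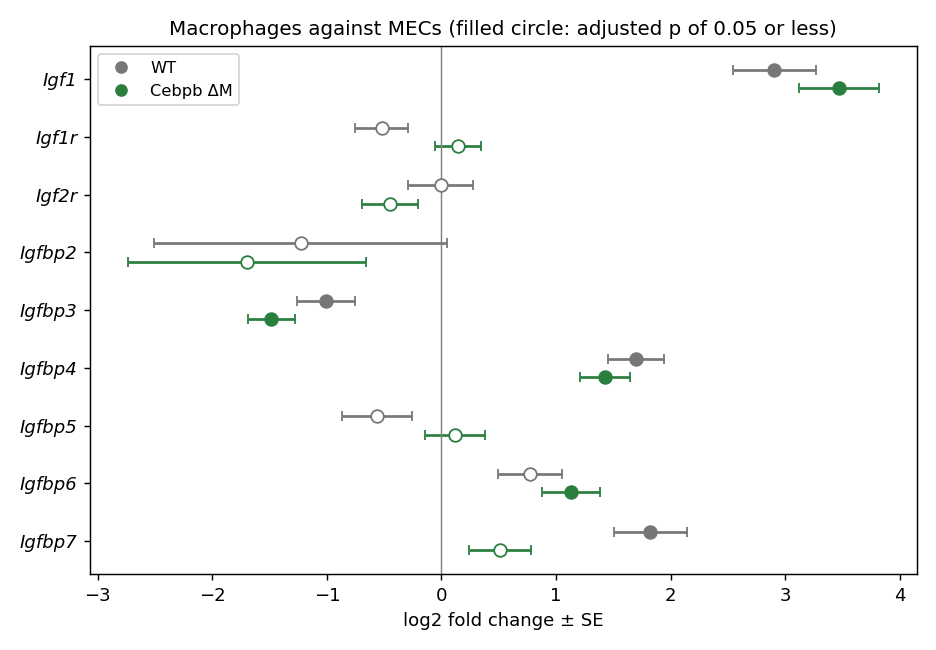
Log2 fold change between macrophages and MECs (bars, SE) for the 9 members tested, in WT and in *Cebpb* ΔM, with filled circles for an adjusted *P* of 0.05 or less (edgeR quasi-likelihood test). *Igf1* has the largest value in both genotypes (2.91 and 3.47), and *Igfbp3* is the filled point below 0 in both (-1.01 and -1.48).

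In MECs, the question was whether deletion in macrophages was followed by changes in the epithelium. *Igfbp2*, *Igfbp3* and *Igfbp7* were higher in both *Cebpb* ΔM libraries than in both WT libraries, but none of the 9 members passed the adjusted threshold of the quasi-likelihood test. With *Igfbp4*, 4 of the 9 members had an unadjusted *P* under 0.05, as did 851 of all 15698 genes (5.42%). *Igfbp2* and *Igfbp5* are neighbors on chromosome 1, *Igfbp2* on the plus strand (72824503 to 72852474) and *Igfbp5* on the minus strand (72857932 to 72874884). *Igfbp2* stood at 24.6 and 42.2 CPM in WT MECs and at 101 and 80.8 CPM in *Cebpb* ΔM MECs, a 2.75-fold difference (log2 fold change 1.46, SE 0.27, adjusted *P* = 0.0991). *Igfbp3* differed 2.29-fold (log2 fold change 1.20, SE 0.22, adjusted *P* = 0.0878). *Igfbp7* differed 2.33-fold (log2 fold change 1.22, SE 0.30, adjusted *P* = 0.231). By *P*-value these genes ranked 37 (*Igfbp2*), 34 (*Igfbp3*) and 138 (*Igfbp7*) among 15698 genes.

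The call on these 3 genes depended on the test. The likelihood ratio test of edgeR, which the study's methods name, called *Igfbp2* (adjusted *P* = 3.983e-04), *Igfbp3* (adjusted *P* = 6.223e-04) and *Igfbp7* (adjusted *P* = 0.0326). DESeq2 called the same 3 genes (adjusted *P* = 4.653e-04, 7.968e-04 and 0.0319). The quasi-likelihood test called 8 of 15698 genes (0.051%) and the likelihood ratio test 179. Over the 10 alternative analyses of this comparison the adjusted *P* ran from 3.983e-04 to 1 for *Igfbp2*, from 6.223e-04 to 0.739 for *Igfbp3* and from 0.0176 to 0.968 for *Igfbp7*, and the log2 fold changes stayed above 0 in each. Leaving out a MEC library left 1 library in its genotype, which the fit assumes to vary like the other genotype. Under that assumption the quasi-likelihood test called *Igfbp2* without *Cebpb* ΔM sample 1 (adjusted *P* = 0.0353) or 3 (adjusted *P* = 0.00314). It called *Igfbp3* without either of these (adjusted *P* = 0.0119 and 0.0290) and without WT sample 1 (adjusted *P* = 0.0381).

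*Igfbp5*, the most abundant binding protein of MECs, stood at 800 and 599 CPM in WT and 480 and 665 CPM in *Cebpb* ΔM, so that the genotypes overlapped at the locus next to *Igfbp2*. Its log2 fold change was -0.26 (SE 0.26, adjusted *P* = 0.9997). *Igfbp4* had a log2 fold change of 0.57 (SE 0.25, adjusted *P* = 0.862), *Igfbp6* of -0.19, *Igf1* of -0.31 and *Igf2r* of -0.12 (each with an adjusted *P* of 0.9997). In all, 6 of the 9 members did not overlap between the 2 MEC genotypes (*Igf1r*, *Igfbp2*, *Igfbp3*, *Igfbp4*, *Igfbp6* and *Igfbp7*), against 28.2% of all genes tested. The median log2 fold change of the 9 members was -0.12, against -0.01 over all genes. No marker of any cell type list passed in this comparison. The milk protein genes were low, with summed levels of 17.2 and 13.2 CPM in WT and 28.1 and 17.9 CPM in *Cebpb* ΔM. The 3 milk genes tested had positive log2 fold changes (median 0.89). The log2 fold changes of the 8 endothelial markers were all negative (median -0.14), and of the 5 pericyte markers 2 were positive and 3 negative (median -0.26). Positive and negative counts were 2 and 4 for macrophage, 2 and 6 for luminal, 1 and 6 for basal, and 3 and 5 for fibroblast markers. The highest values were 0.97 for *Csf1r* (macrophage), 0.82 for *Epcam* (luminal) and 0.96 for *Dcn* (fibroblast). The medians of these 4 lists were -0.13, -0.05, -0.20 and -0.20. The part of any of these cells in the *Igfbp2*, *Igfbp3* and *Igfbp7* values was not tested.

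The start regions of the 3 binding protein genes and of *Igf1* and *Igfbp4* are printed because the likelihood ratio test called *Igfbp2*, *Igfbp3* and *Igfbp7* in MECs, and because *Igf1* and *Igfbp4* were the members higher in macrophages in both genotypes. They are RefSeq promoter windows on GRCm38.p6 of 300 bases, from 250 bases before the start site to 50 bases from it, 5′ to 3′ on the gene's strand, and capitals mark matches on either strand to the GC box GGGCGG or the TATA box TATAAA.
Igfbp2 (chr1:72824230-72824529, plus strand): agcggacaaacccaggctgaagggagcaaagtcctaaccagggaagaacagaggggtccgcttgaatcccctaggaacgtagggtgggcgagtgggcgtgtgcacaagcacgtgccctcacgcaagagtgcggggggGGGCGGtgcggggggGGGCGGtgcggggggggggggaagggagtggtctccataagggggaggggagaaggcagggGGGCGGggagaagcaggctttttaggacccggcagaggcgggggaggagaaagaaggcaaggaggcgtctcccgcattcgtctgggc
Igfbp3 (chr11:7213874-7214173, minus strand): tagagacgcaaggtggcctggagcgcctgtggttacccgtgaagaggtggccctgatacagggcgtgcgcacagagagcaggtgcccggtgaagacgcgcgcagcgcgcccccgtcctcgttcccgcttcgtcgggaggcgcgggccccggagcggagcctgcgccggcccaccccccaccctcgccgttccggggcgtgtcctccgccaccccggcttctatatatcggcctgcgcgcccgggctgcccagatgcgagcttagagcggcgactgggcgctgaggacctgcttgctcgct
Igfbp7 (chr5:77407996-77408295, minus strand): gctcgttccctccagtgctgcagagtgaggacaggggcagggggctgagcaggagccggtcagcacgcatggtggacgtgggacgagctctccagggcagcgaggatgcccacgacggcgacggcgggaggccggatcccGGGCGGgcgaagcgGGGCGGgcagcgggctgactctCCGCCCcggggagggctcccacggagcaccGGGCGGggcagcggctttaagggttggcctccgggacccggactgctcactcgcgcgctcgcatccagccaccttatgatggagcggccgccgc
Igf1 (chr10:87860861-87861160, plus strand): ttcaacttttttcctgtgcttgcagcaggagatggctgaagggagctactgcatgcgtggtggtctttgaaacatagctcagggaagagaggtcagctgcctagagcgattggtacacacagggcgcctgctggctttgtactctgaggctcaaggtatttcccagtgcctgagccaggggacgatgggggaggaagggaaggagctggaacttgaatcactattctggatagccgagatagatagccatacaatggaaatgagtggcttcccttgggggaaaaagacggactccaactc
Igfbp4 (chr11:99040994-99041293, plus strand): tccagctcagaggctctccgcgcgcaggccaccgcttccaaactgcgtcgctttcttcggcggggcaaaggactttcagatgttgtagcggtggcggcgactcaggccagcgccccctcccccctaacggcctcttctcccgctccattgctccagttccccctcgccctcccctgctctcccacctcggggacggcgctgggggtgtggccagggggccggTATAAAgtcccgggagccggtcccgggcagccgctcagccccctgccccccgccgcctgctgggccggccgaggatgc

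All 10 members had a RefSeq window, 14 windows in all because *Igf2* has 4 and *Igfbp2* has 2. The C/EBP motif TTGCNNAA (N, any base, both strands) was in 0 of the 14 windows and in 10.8% of all 32817 promoter windows of this length. The GC box was in 6 of the 14 windows, of 5 members, and in 35.6% of all windows. In the printed *Igfbp2* window it began 113, 98 and 37 bases before the start site, and in the *Igfbp7* window 110, 96, 74 and 44 bases before it. The *Igfbp3* window held neither motif, nor did the *Igf1* window. That *Igf1* window begins at base 87860861, downstream of the first annotated base of the gene (87858265). The region around that first base was not searched. TATAAA was in 2 of the 14 windows and in 13.6% of all windows, and the *Igfbp4* match began 28 bases before the start site. These are letter matches in short windows and say nothing of binding.

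In macrophages, the comparison asked which macrophage genes changed with the loss of *Cebpb*. None of the 9 members passed (quasi-likelihood test), and none of 17772 genes did (0%), while 1534 genes (8.63%) had an unadjusted *P* under 0.05 and the likelihood ratio test called 138 and DESeq2 201. *Igf2r* and *Igfbp3* were the 2 members with an unadjusted *P* under 0.05. *Igfbp3* was higher in all 4 *Cebpb* ΔM libraries than in both WT libraries (log2 fold change 0.67, SE 0.25, unadjusted *P* = 0.0268, adjusted *P* = 0.536). With *Igfbp4*, 3 members did not overlap between the genotypes, against 18.5% of all genes tested. Without samples 4 and 5 the log2 fold change of *Igfbp3* was 0.39 and that of *Igf2r* -0.42 (adjusted *P* = 0.772 and 0.676). The log2 fold change of *Igfbp4* was 0.26 (SE 0.16, adjusted *P* = 0.702), and without TMM scaling its genotypes overlapped. The likelihood ratio test and DESeq2 called no member.

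*Igfbp2* was the member that varied most between macrophage libraries. It stood at 17.004 and 11.5 CPM in WT, and at 76.2, 31.8, 1.74 and 2.10 CPM in *Cebpb* ΔM samples 4, 5, 6 and 7. Samples 4 and 5 lay above both WT libraries and samples 6 and 7 below both, with 43.9-fold between the highest and the lowest. The log2 fold change over all 4 was 0.95 (SE 1.31, adjusted *P* = 0.897). It was -0.28 without sample 4 and -2.91 without samples 4 and 5, a setting added after the data were seen. These are the 2 libraries with high *Igfbp2*, so *Igfbp2* values without sample 4 or without both are given with no test. Against *Cebpb* ΔM MECs, *Igfbp2* in *Cebpb* ΔM macrophages had a log2 fold change of -1.70 (SE 1.04, adjusted *P* = 0.236). The value was -2.91 without sample 4, the library highest in *Igfbp2*, and -5.56 without samples 4 and 5. In WT it was -1.23 (SE 1.28, quasi-likelihood adjusted *P* = 0.521), and it passed with the 2 WT groups fitted alone (adjusted *P* = 0.0447). The *Igfbp2* levels of the cell types did not overlap in either genotype.

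Milk protein, basal and luminal epithelial transcripts also varied between these libraries. The summed milk protein genes (*Csn2*, *Csn1s1*, *Wap* and *Lalba*) stood at 3.36 and 3.57 CPM in WT, each with 1 of the 4 genes at 0, and at 525, 61.7, 12.9 and 1.62 CPM in *Cebpb* ΔM samples 4 to 7. The summed basal markers (7 genes, none at 0) stood at 1165 and 786 CPM in WT and at 3030, 1899, 1891 and 733 CPM in *Cebpb* ΔM. Samples 5 and 6 had basal sums within 10 CPM of each other and *Igfbp2* levels of 31.8 and 1.74 CPM. Sample 7 had milk and basal sums below both WT libraries, as its *Igfbp2* level was. All 7 basal markers (median log2 fold change 1.30) and the 3 milk genes tested (median 4.83) were positive in *Cebpb* ΔM against WT, with none passing. Luminal markers moved the other way, with 7 of 8 negative (median -0.65, none passing) and none at 0. Their sums were 10090 and 10608 CPM in WT and 5346 to 7550 CPM in *Cebpb* ΔM, with no overlap, as for *Igf2r*. The 11 macrophage markers were all positive (median 0.58, none passing), with sums of 8267 and 9585 CPM in WT and 10333 to 15826 CPM in *Cebpb* ΔM. The part of other cells, or of engulfed ones, in the *Igfbp2*, *Igfbp3* and *Igf2r* levels was not tested.

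**Figure D4:**
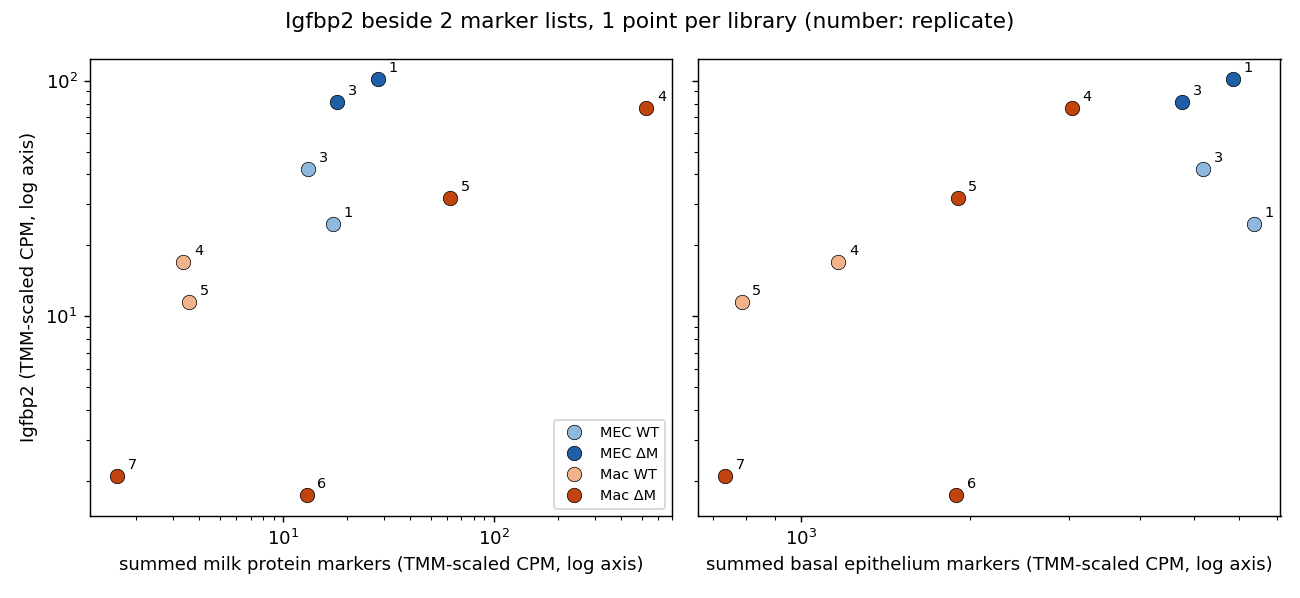
*Igfbp2* level against the summed milk protein genes (left) and basal epithelial markers (right), in TMM-scaled CPM on log axes, with 1 point per library, colored by group and numbered by sample. Among the macrophage libraries, *Cebpb* ΔM samples 4 and 5 lie highest on both plots. *Cebpb* ΔM macrophage sample 6 has a basal sum near that of sample 5 with *Igfbp2* at 1.74 CPM.

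None of the other members passed between the macrophage genotypes. *Igf1* had a log2 fold change of 0.20 (SE 0.19) and *Igf1r* of 0.31 (SE 0.21). *Igfbp5* stood at 496 and 451 CPM in WT and 826, 521, 711 and 432 CPM in *Cebpb* ΔM (log2 fold change 0.37, SE 0.26). Between cell types its log2 fold change was -0.56 in WT (SE 0.30, adjusted *P* = 0.203) and 0.12 in *Cebpb* ΔM (adjusted *P* = 0.763). *Igfbp6* had a log2 fold change of 0.13 (SE 0.27) and *Igfbp7* of -0.14 (SE 0.24). The adjusted *P* of these 5 genes was 0.734 or more, with *Igf1r* lowest. The median log2 fold change of the 9 members was 0.26, against 0.00 over all genes.

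**Figure D5:**
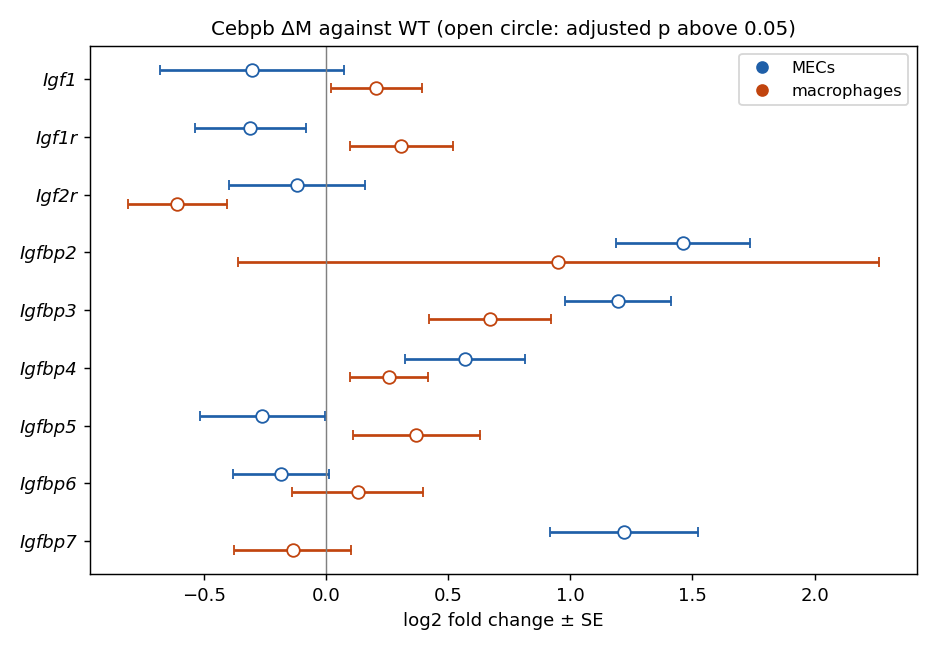
Log2 fold change of *Cebpb* ΔM against WT (bars, SE) for the 9 members tested, in MECs and in macrophages, with open circles for an adjusted *P* above 0.05 (edgeR quasi-likelihood test). All circles are open, *Igfbp2*, *Igfbp3* and *Igfbp7* in MECs lie between 1.20 and 1.46, and *Igfbp2* in macrophages has an SE of 1.31.

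An interaction term in the 10-library fit asked if the genotype difference was unequal in MECs and macrophages. None of the 9 members passed, and 0 of 18323 genes did (quasi-likelihood test), with 951 genes at an unadjusted *P* under 0.05, 53 called by the likelihood ratio test and 27 by DESeq2. *Igfbp7* was the member with an unadjusted *P* under 0.05. The difference of the log2 fold changes was -0.48 for *Igfbp3* (SE 0.33), 0.66 for *Igf1r* (SE 0.31) and -0.47 for *Igfbp2* (SE 1.66), each with an adjusted *P* of 0.958 or more.

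Other genes of the IGF pathway were read from a list of 44 names in 5 groups. None of the 37 tested in MECs and none of the 38 tested in macrophages passed between genotypes (quasi-likelihood test). An unadjusted *P* under 0.05 was found for 2 and 5 of them, and for 5.42% and 8.63% of all genes. None of 39 passed in the interaction, where 4 had an unadjusted *P* under 0.05, against 5.19% of all genes. Between cell types, 7 of 39 passed as higher and 3 as lower in WT macrophages, and 7 as higher and 1 as lower in *Cebpb* ΔM macrophages. Over all genes the shares were 14.8% higher and 10.7% lower in WT and 18.9% and 14.7% in *Cebpb* ΔM. *Stc1*, an inhibitor of the pappalysin proteases, was higher in macrophages in both genotypes (log2 fold changes 2.34 and 2.27, quasi-likelihood adjusted *P* = 1.896e-04 and 8.674e-05). *Grb10*, an adaptor that restrains insulin and IGF receptor signaling, was also higher in both (2.32 and 2.21, adjusted *P* = 0.00120 and 6.524e-04). *Stat5b*, a transcription factor downstream of the growth hormone receptor, was higher in both by less (0.78 and 0.77, adjusted *P* = 0.0153 and 0.00651). *H19* was higher in both (4.66 and 3.39, adjusted *P* = 0.00988 and 0.0251), a gene named after its values were seen. No gene of the list passed as lower in both.

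*Pappa*, the protease that cleaves *Igfbp4*, stood at 17.03 and 13.0 CPM in WT MECs and 4.26 and 3.09 CPM in WT macrophages. It was 4.07-fold lower in WT macrophages than WT MECs (log2 fold change -2.03, quasi-likelihood adjusted *P* = 0.0486). *Pappa* stood at 17.2 and 17.8 CPM in *Cebpb* ΔM MECs and at 13.6, 9.30, 5.86 and 1.74 CPM in *Cebpb* ΔM macrophages, with a log2 fold change of -1.19 that did not pass (adjusted *P* = 0.115). *Irs2*, a docking protein of insulin and IGF receptors, was 1.85-fold lower in WT macrophages (log2 fold change -0.89, adjusted *P* = 0.0201), with a log2 fold change of -0.38 in *Cebpb* ΔM (adjusted *P* = 0.179). The third gene that passed as lower in WT macrophages was the adaptor *Gab1* (-0.99). The gene that passed as lower in *Cebpb* ΔM macrophages was *Grb14* (-1.73, quasi-likelihood adjusted *P* = 3.337e-04). Both are named after their values were seen. *Irs1*, a relative of *Irs2*, had log2 fold changes of -0.00 and 0.78 between cell types (adjusted *P* = 0.998 and 0.143). *Insr*, the insulin receptor, was higher in *Cebpb* ΔM macrophages (1.07, adjusted *P* = 0.0199) and not called in WT (0.86, adjusted *P* = 0.0856). *Ghr*, the growth hormone receptor, was at 24.6 to 46.5 CPM in MECs and 27.4 to 37.7 CPM in macrophages, with no call.

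By the likelihood ratio test, 1 gene of the list passed in MECs and 2 in macrophages, and they are named after their values were seen. *Htra1*, a secreted protease that can cut binding proteins, stood at 30.3 and 44.3 CPM in WT MECs and 73.1 and 68.9 CPM in *Cebpb* ΔM MECs (log2 fold change 0.95, likelihood ratio adjusted *P* = 0.0395, quasi-likelihood adjusted *P* = 0.239). *Stat5a*, a mediator of prolactin and growth hormone signals, had a log2 fold change of -1.07 in *Cebpb* ΔM macrophages (likelihood ratio adjusted *P* = 0.00264, quasi-likelihood adjusted *P* = 0.452). *Grb14*, a relative of *Grb10*, had a log2 fold change of -1.13 there (likelihood ratio adjusted *P* = 0.0300, quasi-likelihood adjusted *P* = 0.452). Both were lower in the genotype with the lower luminal marker sums, whose part in them was not tested.

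The genes whose profile over the 10 libraries was most like each member's are given as a description. Likeness is the root mean square difference of log2(CPM + 1) after each gene was centered on its mean, so smaller is closer. Closest to *Igf1* were *Rem1* (0.232) and *Kctd12* (0.256), where the profile of *Igf1* had an SD of 1.69. Closest to *Igfbp4* were *Prkch* (0.125) and *Gm15336* (0.166), and to *Igfbp7* *Rapgef4* (0.270) and *Arhgap10* (0.296). For *Igfbp5* they were *Myh11* (0.165), the smooth muscle myosin that is also among the basal markers, and *Myo1d* (0.167). *Igfbp3* was closest to *Maff* (0.304) and *Eif3f* (0.307), and *Igfbp6* to *Pspn* (0.144) and *Pisd-ps1* (0.145). *Igfbp2* had the least close first neighbor, *Col7a1* (0.693), with a profile SD of 1.85. The receptors were closest to *Zfp207* (0.109) and *Pnisr* (0.115) for *Igf1r* and to *Cemip2* (0.130) and *Plekhg3* (0.144) for *Igf2r*, over narrow profiles (SD 0.24 and 0.38).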

How the data were processed

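Per the methods and the count table headers, the authors trimmed paired reads with Trimmomatic, mapped them to GRCm38 with HISAT2 and counted read pairs with both ends mapped and a mapping quality of at least 10 on Ensembl release 100 genes with featureCounts (version 1.6.2), set to reverse strand. The library kit is not stated to mark strand. The deposited values are raw counts per gene and library, without normalization. Gene symbols came from a table of mouse gene names, with a symbol for 55141 of 55487 genes.

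Genes under 300 nt were removed, and genes over 1 CPM in at least 2 libraries of a fit were kept. The main test was edgeR (version 4.0.16, R version 4.3.3) with TMM normalization and the quasi-likelihood test, *P*-values adjusted by Benjamini–Hochberg across the fitted genes, and 0.05 as the cutoff. MEC and macrophage genotypes were fitted separately (15698 and 17772 genes). Cell types and the interaction were fitted over the 10 libraries (18323 genes). The SE is the log2 fold change divided by the square root of the F statistic. The study's own test, the likelihood ratio test, DESeq2 (version 1.42.0), relative log expression (RLE) normalization, no low-count filter, a replicate block, other sample choices and each library left out were alternatives. The tests were checked on simulated counts. No libraries of a group agreed within sampling noise. Floors cover counting error only.

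Named were the 10 members in every comparison, pathway genes that passed between genotypes or in the interaction, up to 3 higher and 3 lower genes, by smallest *P*, that passed in both cell type comparisons, *Insr*, *Irs1*, *Irs2*, *Ghr* and *Pappa*, *Cebpb*, and the 2 most similar profiles per member, of which 1 gene is not reported here. Members and lists were chosen with earlier results of these data known. Figures were drawn with matplotlib in Python.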

Additional observations from a re-analysis of the deposited data

How the results depend on the processing

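Calls between genotypes changed with the test, the filter, the block and the libraries used. In MECs, the likelihood ratio test called 3 members, 1 other pathway gene and 179 of all genes, DESeq2 called 3 members and 161 genes, and analysis without a low-count filter called 2 members and 67 genes. A fit over all 10 libraries with the quasi-likelihood test called 0 genes between MEC genotypes, where 491 of 18323 had an unadjusted *P* under 0.05. In macrophages, the likelihood ratio test called 2 pathway genes and 138 genes, and DESeq2 2 pathway genes and 201 genes. For the interaction the totals were 53 and 27 genes. Deviations of samples with the same replicate number had correlations of 0.097 in MECs and 0.199 and -0.115 in macrophages. With 2 WT libraries per cell type, their deviations mirror each other. The correlations therefore cannot decide whether the numbers pair the samples. With the replicate number as a block, 3 members, 1 pathway gene and 205 genes were called in MECs, 12 genes in macrophages and 1 gene in the interaction. No paired analysis was possible between cell types because MECs and macrophages share no replicate numbers. Leaving out each library gave 0 to 2 members, 0 to 1 pathway gene and 2 to 337 genes in MECs, and 0 to 1 gene in the interaction. Between cell types it gave 3 to 5 members, 3 to 12 pathway genes and 2456 to 4846 genes in WT, and 4 to 5 members, 5 to 10 pathway genes and 3496 to 6556 genes in *Cebpb* ΔM. Where this left 1 library in a group, that library was assumed to vary like the other groups. The causes of these differences were not tested.

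Of 648 log2 fold changes of members under an alternative, 20 reversed, and none of these had passed. In macrophages, *Igfbp6* went to -0.049 with the block and -0.028 with samples 4 and 5 only, and *Igfbp2* to -2.91 without *Cebpb* ΔM samples 4 and 5. *Igf2r* between WT cell types went to 0.043 without those samples, and the *Igfbp2* interaction to 0.33 with the block. With each library left out, log2 fold changes ran from -1.07 to 0.19 for *Igf1* and -0.65 to 0.27 for *Igf2r* in MECs. In macrophages they ran from -0.28 to 1.34 for *Igfbp2*, -0.11 to 0.24 for *Igfbp6* and -0.36 to 0.13 for *Igfbp7*. Between cell types they ran from -0.066 to 0.13 for *Igf2r* in WT, and from -0.82 to 0.047 for *Igf2r* and -0.096 to 0.37 for *Igfbp5* in *Cebpb* ΔM. In the interaction they ran from -0.81 to 0.056 for *Igf2r* and from -0.56 to 0.094 for *Igfbp4*. Leaving out *Cebpb* ΔM samples 4 and 5 was chosen after seeing the data. The causes were not tested. Without TMM scaling, 6 members in MECs and 2 in macrophages did not overlap between genotypes. The share over all genes was computed only with TMM scaling (28.2% in MECs and 18.5% in macrophages).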
